A study of Mus musculus with 10 samples.

Results

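The region probes described here measured stretches of the mouse genome that the array lists only by an interval, with no gene name. Whether a stretch lies between genes or within a known gene was not checked. They are all probes, control spots left out, whose listed name is an interval on a numbered chromosome other than chromosome 6, and there were 14637 of them among the 55681 probes of the array (26.3%). They fall in 3193 intervals on 18 chromosomes, and intervals that overlap merge into 2004 loci. An interval has a letter, F or R, on most of its probes: 7426 probes carried F, 7203 carried R and 8 carried neither, and the files do not say what the letters mean, so below they are given only as labels of orientation. Each combination of interval and letter was represented by 1 to 10 probes (median 3). Interval lengths ran from 62 bp to 7128487 bp with a median of 7476 bp, 876 intervals were shorter than 1000 bp and 1 was longer than 1000000 bp. All positions below are those of the array's own design, whose header names mm9.

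Long intergenic noncoding RNAs (lincRNAs) are transcripts made from DNA between protein coding genes. Many are spliced and polyadenylated like mRNAs, but they are in general less abundant and more restricted to particular cell types, and most of the intervals on such arrays were listed from chromatin marks or from early transcript catalogues before any gene was annotated there. In embryonic stem cells, lincRNAs are known both as markers of the undifferentiated state and, in some cases, as regulators of it.

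The arrays come from a test of *Hottip*, a lincRNA gene at the 5′ end of the Hoxa cluster, and of its neighbour *Hoxa13*, and ask what follows when either promoter is switched on. E14 embryonic stem cells (129/Ola background, grown with 1000 U/ml of the cytokine Lif, which holds them in the undifferentiated state) were transfected with a pool of 5 guide RNA plasmids for the *Hottip* promoter (4 arrays) or for the *Hoxa13* promoter (3 arrays), together with dCas9-VP160, a Cas9 that cannot cut and carries an activation domain. The 3 groups share the cell line, the medium, puromycin at 2 μg/ml for 24 hr and RNA extraction 48 hr after transfection. The control (3 arrays) is labelled as control gRNA in one place and as non-targeting gRNAs and dCas9 alone in another, so it may lack VP160 as well as targeting guides. The labels call the replicates biological without saying which cultures they came from, so p-values measure the spread between these samples. Each array was hybridised with Cy3-labelled RNA of 1 sample, and the number of arrays limits the precision.

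All 4 *Hottip* gRNA arrays showed *Hoxa13* itself well above background, compared with 0 of 3 control arrays and 0 of 3 arrays labelled *Hoxa13* gRNA. A spot is well above background when the scanner software marks its signal as clearly over the spread of the background. The group name "arrays labelled *Hoxa13* gRNA" is therefore kept below, and differences drawn from them carry that limit. *Hottip* was matched to no probe by name. Of 8 ES cell markers, 8 were well above background on all 10 arrays and none was called different in any comparison. *Cdx2* and *Gata3* (2 of 4 trophoblast markers) and *Gata6* (1 of 4 endoderm markers) were called higher on *Hottip* gRNA arrays than on control arrays and than on the arrays labelled *Hoxa13* gRNA. The level of *Cdx2* was 4.06 higher than in the control (adjusted p = 0.000684, limma), that of *Gata3* 2.72 (adjusted p = 0.00356) and that of *Gata6* 1.66 (adjusted p = 0.0491), all on the log2 scale. The trophoblast marker *Elf5* was well above background on 0 of 10 arrays and the endoderm marker *Foxa2* on 1. The summed trophoblast level was 1.28 to 1.71 on control arrays, 0.89 to 4.45 on *Hottip* gRNA arrays and −1.65 to 3.01 on arrays labelled *Hoxa13* gRNA. The trophoblast marker *Krt8*, never below 1.08 where kept, was left out as an outlier on some arrays. It was kept on 3 of 3 control arrays, 3 of 4 *Hottip* gRNA arrays and 2 of 3 arrays labelled *Hoxa13* gRNA. The low ends 0.89 and −1.65 are thus sums without *Krt8* and cannot be set beside the control. The summed endoderm level was 0.88 to 1.41, 2.08 to 2.95 and 0.87 to 1.15 in the same order of groups. The part of these markers in the results below was not tested, and in bulk RNA more cells of a type and more RNA per cell cannot be told apart.

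Region probes were detected on every array, but at a fraction of the rate of annotated genes. On control arrays 1, 2 and 3, 18.9%, 13.3% and 12.9% of region probes were well above background. On *Hottip* gRNA arrays 1 to 4 the shares were 9.14%, 9.99%, 12.8% and 14.0%, and on the arrays labelled *Hoxa13* gRNA they were 14.7%, 17.7% and 14.0%. Control 1 was the highest and the first pair of *Hottip* gRNA arrays were the lowest, and the control overlapped with both other groups. Probes named by a RefSeq NM_ accession (protein coding mRNAs, 26640 probes) were detected at 43.6% to 59.8% on the same arrays, 3.15 to 4.77 times the share of the region probes. Probes named by an NR_ accession (annotated noncoding RNAs, 1426 probes) were detected at 16.7% to 26.0%. On 10 of 10 arrays the region share was below the NR_ share, and on 10 of 10 the NR_ share was below the NM_ share. Spots marked as outliers by the scanner software were left out of these shares. With them kept, 11.5% to 20.8% of region probes were well above background. Counted over merged loci, with a locus detected when any of its probes was, 31.6% to 48.2% of the 2004 loci were detected on an array.

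**Figure D1:**
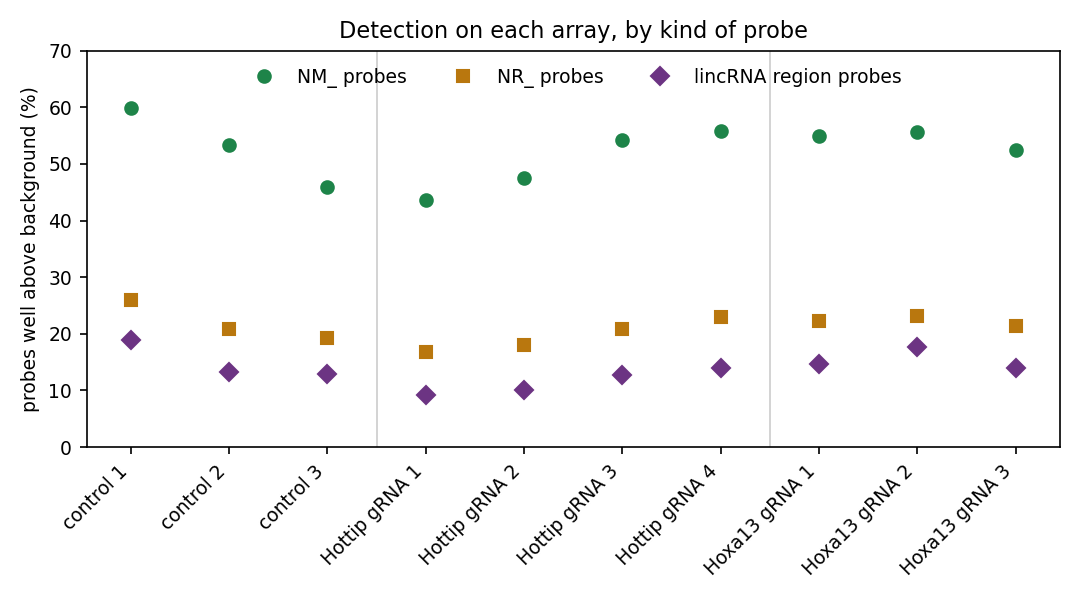
Share of probes well above background (vertical axis, percent) on each of the 10 arrays, for NM_, NR_ and lincRNA region probes, with 1 point per kind of probe and array. Region probes lie between 9.14% and 18.9% and below the NR_ and NM_ probes of the same array on 10 of 10 arrays.

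The share well above background did not separate either group with targeting guides from the control. The *Hottip* gRNA arrays had a mean share of 11.5% ± 2.28 (SD, n = 4), a difference of −3.56 percentage points from the control arrays, whose SD was 3.33 (n = 3) (two-sided exact permutation test, p = 0.2, where the smallest possible is 0.0286). On the arrays labelled *Hoxa13* gRNA it was 15.5% ± 1.92 (SD, n = 3), 0.448 points above the control (exact p = 0.8, smallest possible 0.1). *Hottip* gRNA arrays were 4.01 points below the arrays labelled *Hoxa13* gRNA (exact p = 0.0571). Each lay below each of those, the nearest at 1954 of 13987 usable region probes against 2022 of 14407. With outlier spots kept they overlapped, at 11.5% to 17.8% and 14.8% to 20.8%. With the weaker mark of the scanner, positive and significant, the *Hottip* gRNA arrays had 26.0% to 30.4% and the control arrays 30.8% to 42.7%, a difference of −7.35 points, and the difference from the arrays labelled *Hoxa13* gRNA was −9.83 points (exact p = 0.0286 each). That separation rested on leaving out outlier spots: with them kept, *Hottip* gRNA and control arrays overlapped (27.6% to 33.5% and 30.9% to 42.8%) and the differences were −6.31 (exact p = 0.0857) and −9.09 points (exact p = 0.0571). These comparisons share arrays, the control arrays in the first pair and the *Hottip* gRNA arrays in the first and the last, so they are not independent of each other. Place on the slide moved with the share: the 5 arrays of the upper slide row had 9.14% to 14.7% (median 12.9%) and the 5 of the lower row 12.8% to 18.9% (median 14.0%). The 2 arrays on the slide that held only arrays labelled *Hoxa13* gRNA had 14.7% and 17.7%, and the 8 on the other slide 9.14% to 18.9%. The part of the slide and of the row in the group differences was not tested beyond the alternatives of the closing section.

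Most region probes were detected on no array or on a single one, and a small constant set on all of them. Of the 14637, 8436 (57.6%) were well above background on 0 arrays, compared with 54.8% of NR_ and 27.5% of NM_ probes. A further 2617 were detected on 1 array and 920 on 2. At the other end, 895 region probes (6.11%) were detected on all 10 arrays, against 13.9% of NR_ probes and 40.1% of NM_ probes, and 584 of them still were once spots marked as outliers were left out. Between these ends, each count from 3 to 9 arrays held 142 to 530 region probes. Probes detected on every array of 1 group and on no other array numbered 16 for *Hottip* gRNAs (0.109%, against 0.101% of all probes), 2 for the control (0.0137%, against 0.0431%) and 10 for the arrays labelled *Hoxa13* gRNA (0.0683%, against 0.0647%). Only 8 region probes were saturated on any array.

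**Figure D2:**
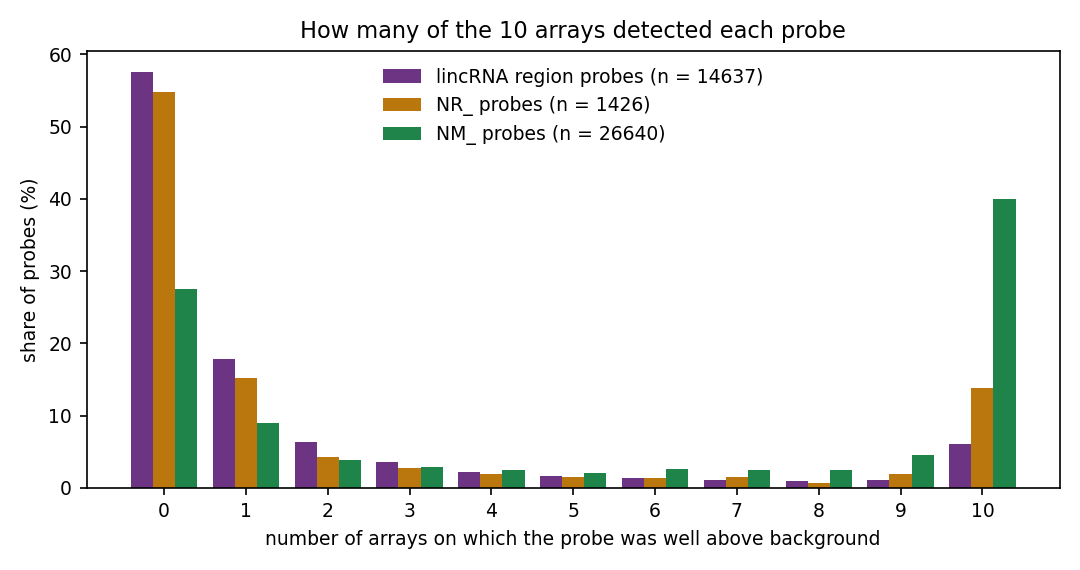
Share of probes (vertical axis, percent) by the number of the 10 arrays on which the probe was well above background (horizontal axis), for 14637 region, 1426 NR_ and 26640 NM_ probes. Region probes peak at 0 arrays (57.6%) and have a small second peak at 10 arrays (6.11%), where NM_ probes reach 40.1%.

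The detected region probes were also dimmer as a class. The level of a probe is the log2 of its processed signal minus the 75th percentile of all probes on that array, so that a level of 0 is that percentile. The median level of all region probes was between −5.48 and −3.58 on the 10 arrays, and that of NR_ probes between −5.28 and −3.48. For NM_ probes it was between −2.10 and −1.52. On *Hottip* gRNA replicate 3 region, NR_ and all probes had the same median, −4.54, and on replicate 4 region and NR_ probes had −5.01. Single dim probes below recur at these values, so such low levels mark spots near background. Differences that use them are uncertain in size. Among probes well above background only, the median was −1.58 to 0.11 for region probes, −0.22 to 0.78 for NR_ probes and 0.91 to 1.37 for NM_ probes, and on 10 of 10 arrays the region median was the lowest of these classes. Between 4.07% and 5.64% of region probes lay above the 75th percentile of their array, compared with 10.9% to 12.6% of NR_ and 31.8% to 38.4% of NM_ probes. Brightness also depends on the sequence of a probe, so these are differences between classes of probes and not between single transcripts.

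Detection was uneven within intervals. A probe detected on all 10 arrays was found in 496 of the 3193 intervals (15.5%) and in 399 merged loci. Among the 3063 combinations of interval and letter with at least 3 probes, 47 had every probe detected on all 10 arrays, 341 had some and 2675 had none. Of the 388 with any such probe, 219 had exactly 1. In 978 intervals probes of both letters were present. Of these, 137 had such a probe for F only, 132 for R only, 24 for both and 685 for neither. With so few probes on all 10 arrays, one letter alone is the usual outcome whatever the strands do, so these counts show no restriction to one orientation. The letters themselves differed little, with 6.28% of F and 5.96% of R probes on all 10 arrays. By chromosome, the share of region probes on all 10 arrays ran from 4.01% (chromosome 3) to 10.8% (chromosome 17, 98 of 904 probes), followed by chromosomes 7 (8.76%) and 8 (8.13%). Of the 98 on chromosome 17, 18 lay within chr17:39960567-39992817, a stretch with 20 region probes. With intervals split by length into 4 classes of about equal number, the shortest, up to 796 bp, had 3.85% of their probes on all 10 arrays, against 6.49%, 6.81% and 6.17% in the longer classes. Overlapping intervals and probes of 1 transcript are not independent, so these shares carry no test.

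The 10 region probes with the highest mean level among those on all 10 arrays had means of 4.95 to 5.65 and none was called different in any comparison. Of these, A_30_P01021243 (chr17:48068261-48087905, F), saturated on 1 array, was at 4.52, 4.86 and 6.67 in the control, 6.05, 6.47, 5.11 and 4.45 after *Hottip* gRNAs and 6.46 and 6.31 on the arrays labelled *Hoxa13* gRNA, where replicate 2 (5.06) was marked as an outlier and left out. Control 3 and *Hottip* gRNA replicate 2 were the highest, and the groups overlapped throughout. A_30_P01022075 (chr17:17481706-17482457, R, mean level 5.56) was saturated on 4 arrays, so both levels are lower limits and set no order, and its interval held 2 other R probes, both on all 10 arrays. A_30_P01025009 (chr9:14460976-14488051, F, mean level 5.03) had 4 other F probes, all 4 on all 10 arrays, while of the 5 R probes of the same interval 0 were on all 10 and 2 were on any array. The other 7 were A_30_P01026458 (chr11:22681800-22707775, R), A_30_P01030669 (chr7:108209996-108216032, R), A_30_P01020276 (chr12:119825125-119850750, F), A_30_P01022125 (chr19:56820850-56837925, R), A_30_P01031754 (chr19:5801802-5802597, R), A_30_P01025225 (chr4:33364774-33364898, R) and A_30_P01020514 (chr17:39983902-39985688, F). For 5 of these 10 probes the interval had no probe of the other letter, and in the other 5 intervals 0 probes of the other letter were detected on all 10 arrays.

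Differences between groups were fitted with limma over the probes that 3 or more of the 10 arrays showed well above background, and an adjusted p under 0.05 made a call. That filter kept 2664 region probes (18.2%), compared with 59.6% of NM_ and 25.7% of NR_ probes, so 11973 region probes were too dim to be tested. Of 2663 region probes tested between *Hottip* gRNAs and the control, 8 were called higher, in 5 intervals, where 0.53% of all probes tested were, and 19 lower, where 0.399% of all probes were. That is 0.3% and 0.713% of the region probes. Against the control, the arrays labelled *Hoxa13* gRNA had 1 region probe of 2661 called higher (0.0438% of all probes) and 7 lower (0.092% of all probes). Between *Hottip* gRNAs and the arrays labelled *Hoxa13* gRNA, 6 of 2660 were called higher (0.425% of all probes) and 9 lower (0.201% of all probes). In both directions together, 1.01%, 0.301% and 0.564% of region probes were called in these comparisons and 0.983%, 0.113% and 0.681% of NM_ probes. These counts depended on the processing. Against the control, *Hottip* gRNAs gave 2 higher and 11 lower with arrays centred on their medians, 9 and 4 with outlier spots kept and 5 and 2 with the local surroundings of each spot subtracted, as explained below. On the arrays labelled *Hoxa13* gRNA, 0 region probes were higher and 10 lower against the control under quantile normalization, and between *Hottip* gRNAs and those arrays 7 were higher and 2 lower under it and 5 and 5 with median centring. The median log2 difference of the tested region probes was −0.06 for *Hottip* gRNAs against the control (all probes −0.03), 0.13 for the arrays labelled *Hoxa13* gRNA against the control (all probes 0.19) and −0.26 for *Hottip* gRNAs against those arrays (all probes −0.26).

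Most of the lower calls lay together on the array surface. Around each spot, the local median is the median level of the 11 by 11 spots about it on that array, which neighbouring probes of any sequence share. For 14 of the 19 region probes called lower after *Hottip* gRNAs the local median was itself lower than in the control, by 1.01 to 3.37 on the log2 scale, and these 14 sat in rows 337 to 352 and columns 42 to 126, which held 15 of the 19. In that patch of 327 region spots, the local median was −2.46 on control 1 and −1.50 on control 2, where all region spots of these arrays had −4.40 and −4.56. It was −4.41 on control 3, where 10.7% of the region spots in the patch were marked as outliers, and −2.52 on *Hottip* gRNA replicate 1, where 17.4% were. On *Hottip* gRNA replicates 2 to 4 it was −3.69, −4.54 and −5.01. The local median was thus high on control 1, control 2 and *Hottip* gRNA replicate 1. Of the 19 lower calls, 13 had a spot of a *Hottip* gRNA array marked as an outlier and left out. The same strip held 7 of the 7 region probes called lower on the arrays labelled *Hoxa13* gRNA, 6 of them with a local median difference beyond 1. The 1 called higher there, A_30_P01019294 (chr2:176583825-176714400, F, difference 2.85, adjusted p = 0.0426, at least 2.08-fold), had a local median difference of 1.20, was called in 0 of 20 alternatives (adjusted p = 0.0575 to 0.363) and passed the filter only through the 3 arrays labelled *Hoxa13* gRNA. Between *Hottip* gRNAs and the arrays labelled *Hoxa13* gRNA, 3 of the 9 lower calls were neighbours in rows 374 to 376 and columns 161 to 162, with local median differences of −3.68 to −3.08. None of the 8 higher calls against the control had a local median difference beyond 1, compared with 19.3% of all tested region probes.

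**Figure D3:**
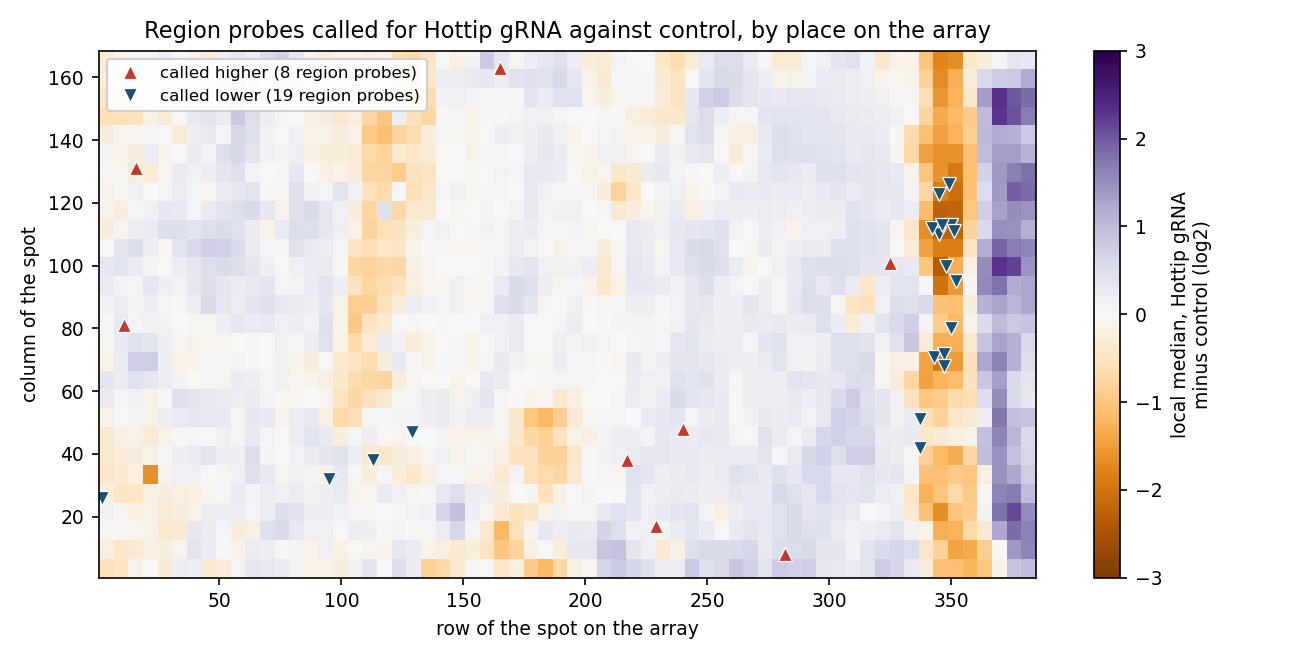
Place on the array (spot row and column) of the 8 region probes called higher and the 19 called lower after *Hottip* gRNAs, over the local median of *Hottip* gRNA minus control arrays (colour, log2). Of the 19 lower calls, 15 lie in rows 337 to 352 and columns 42 to 126, 14 of them with a local median lower by 1.01 to 3.37, and the higher calls are spread over the array.

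The probes called lower with the largest differences were in that patch. A_30_P01020097 (chr9:88338621-88338923, F) had levels of 3.27 and 2.85 on control 1 and 2, with control 3 (1.64) left out as an outlier, and of −3.34, −4.54 and −3.46 on *Hottip* gRNA replicates 2 to 4, with replicate 1 (2.06) left out as an outlier. The *Hottip* gRNA spot that was left out lay within the range of the control spots. The fitted difference of −6.84 (SE 0.87, adjusted p = 0.0112, limma) became −4.91 (adjusted p = 0.243) with outlier spots kept. A_30_P01033639 (chr3:27837825-27880925, R) followed the same pattern, with 1.12 and 1.48 in the control (−0.80 left out), −3.82, −4.54 and −5.01 after *Hottip* gRNAs (0.86 left out) and −4.53, −3.79 and −5.12 on the arrays labelled *Hoxa13* gRNA. Its difference was −5.75 (adjusted p = 0.00214) and became −3.72 (adjusted p = 0.34) with outlier spots kept. The other 3 named by the same rule were A_30_P01032749 (chr8:108153471-108159672, R, −5.79), A_30_P01030390 (chr9:106170918-106177894, R, −5.23) and A_30_P01032128 (chr11:53592946-53637922, F, −5.21), each with 1 *Hottip* gRNA and 1 control spot left out and none called with outlier spots kept. In the 14 intervals with such calls, 12 other probes of the same interval and letter were tested, of which 7 differed in the same direction and 2 by more than 1 on the log2 scale. In the arrays labelled *Hoxa13* gRNA against the control, the 5 lower probes named by rule were A_30_P01033639 (−5.78), A_30_P01030390 (−5.05), A_30_P01018235 (chr1:137482591-137625604, F, −4.51), A_30_P01027842 (chr19:53517903-53540753, F, −4.47) and A_30_P01022515 (chr8:74473445-74496948, R, −4.33), all in rows 337 to 352.

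Away from such patches, an interval on chromosome 17 had the largest rise. Within chr17:13185488-13187031, letter R, A_30_P01022589 had levels of −5.62, −4.64 and −4.07 in the control, −0.47, 0.09 and 0.14 on *Hottip* gRNA replicates 1 to 3, and −4.10, −3.91 and −4.46 on the arrays labelled *Hoxa13* gRNA. *Hottip* gRNA replicate 4 (3.57) was marked as an outlier and left out of the fit. It was detected well above background in 4 of 4 *Hottip* gRNA samples and 0 of the other 6, and the *Hottip* gRNA arrays did not overlap with any other. The difference from the control was 4.70 (SE 0.42, adjusted p = 0.00138, limma). This probe and the next passed the filter of 3 arrays only through the *Hottip* gRNA arrays, so the split in detection is a description. Since the control has only an upper limit, this is an at least 10.5-fold higher signal, where each control array enters with the signal of the probe or, if higher, the dimmest signal among probes well above background. A_30_P01026394, the second probe there, had −5.90, −5.14 and −3.88 in the control, −0.61, 0.03, −0.44 and −1.13 after *Hottip* gRNAs and −3.06, −3.72 and −4.73 on the arrays labelled *Hoxa13* gRNA. It too was detected on the *Hottip* gRNA arrays only, with a difference of 4.44 from the control (SE 0.54, adjusted p = 0.00421, limma, at least 7.62-fold).

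The third probe of that chromosome 17 interval behaved differently. A_30_P01019904 was detected on all 10 arrays, at 0.80, 1.43 and 2.23 in the control, 2.18, 2.39, 1.63 and 1.12 after *Hottip* gRNAs and 2.60, 3.56 and 1.45 on the arrays labelled *Hoxa13* gRNA. The groups overlapped, and the difference from the control was 0.34 (adjusted p = 0.949). Over the 3 probes, each centred on its own mean, the interval was 2.95 higher (SE 0.52, adjusted p = 0.0253, limma). That mean rests on the first 2 probes, which passed the filter only through the *Hottip* gRNA arrays, so it lends them no separate support. Against the arrays labelled *Hoxa13* gRNA the first 2 probes were 4.08 (adjusted p = 0.00551, at least 9.87-fold) and 3.30 (adjusted p = 0.0303, at least 6.79-fold) higher. After subtraction of the local median both remained called against the control, at 4.48 (adjusted p = 0.00269) and 4.17 (adjusted p = 0.00253).

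A pair of neighbouring intervals on chromosome 16 had 8 tested probes with positive differences, of which 4 were called higher. In chr16:9129538-9137898, letter F, A_30_P01030442 had levels of −0.83, −1.06 and −1.30 in the control, 1.09, 0.85, 0.70 and 0.55 after *Hottip* gRNAs and −0.78, −0.89 and −1.32 on the arrays labelled *Hoxa13* gRNA. Every *Hottip* gRNA array was above every other array, the probe was detected on all 10, and the difference from the control was 1.86 (SE 0.27, adjusted p = 0.00928, limma). A_30_P01022163 was the steadiest within groups, at −0.52, −0.43 and −0.56, then 0.87, 0.77, 1.07 and 0.91, then −0.56, −0.44 and −0.44, a difference of 1.41 from the control (SE 0.22, adjusted p = 0.0159). A_30_P01018089 was 1.68 higher (adjusted p = 0.0234), and the 2 other tested probes of the interval, not called, were 1.04 and 1.78 higher. In chr16:9158862-9162427, also F, A_30_P01018097 had −1.51, −1.43 and −1.19 in the control, 0.04, 0.48 and 0.45 on the *Hottip* gRNA arrays that were kept and −1.56, −0.98 and −1.65 on the arrays labelled *Hoxa13* gRNA. Its difference was 1.70 (adjusted p = 0.0366), the other 2 probes were 1.69 and 1.84 higher without being called, and the mean of the interval was 1.73 higher (SE 0.30, adjusted p = 0.0247). Against the arrays labelled *Hoxa13* gRNA, A_30_P01030442 (1.79, adjusted p = 0.0199), A_30_P01018097 (1.72, adjusted p = 0.0467) and A_30_P01022163 (1.38, adjusted p = 0.0271) were called higher. After subtraction of the local median, A_30_P01030442, A_30_P01022163 and A_30_P01018097 kept their direction against the control, at 1.17 to 1.77, but were not called (adjusted p = 0.264, 0.23 and 0.313).

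An interval on chromosome 8 and one on chromosome 10 completed the higher calls. In chr8:41730287-41746862, letter F, A_30_P01024917 had levels of −4.38, −4.98 and −5.15 in the control, −1.77, −1.95, −1.09 and −1.44 after *Hottip* gRNAs and −4.20, −4.37 and −2.31 on the arrays labelled *Hoxa13* gRNA. The *Hottip* gRNA arrays were above all others, the probe was detected on 3 of them and on 0 of 3 control arrays, and the difference from the control was 3.28 (SE 0.49, adjusted p = 0.0118, at least 3.75-fold). Those 3 *Hottip* gRNA arrays alone met the filter, so the split in detection is a description. The interval mean given next includes this probe. The other tested probe of the interval, A_30_P01033543, was 2.12 higher without being called, and the mean of both was 2.70 higher than the control (SE 0.39, adjusted p = 0.00895) and 2.22 higher than the arrays labelled *Hoxa13* gRNA (adjusted p = 0.0359). In chr10:94900849-94928059, letter F, A_30_P01028741 had −1.76, −2.53 and −2.12 in the control, −0.47, −0.54, −0.04 and −0.79 after *Hottip* gRNAs and −1.87, −1.54 and −2.08 on the arrays labelled *Hoxa13* gRNA. All *Hottip* gRNA arrays were above the rest, and the difference from the control was 1.68 (SE 0.30, adjusted p = 0.0284). With the local median subtracted, A_30_P01024917 was still called (2.65, adjusted p = 0.0325) and A_30_P01028741 was not (1.87, adjusted p = 0.127). Another probe of this interval, A_30_P01031775, was called only against the arrays labelled *Hoxa13* gRNA (2.70, adjusted p = 0.0196, at least 3.50-fold), and A_30_P01030099 had a difference of −1.55 from the control that was not called. Over the 5 intervals with a higher call, 8 of the 9 other tested probes of the same interval and letter differed in the same direction and 7 by more than 1 on the log2 scale. Of all tested region probes 45.1% were higher in this comparison. Probes of 1 interval may share a transcript, so they are not independent of the called ones.

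**Figure D4:**
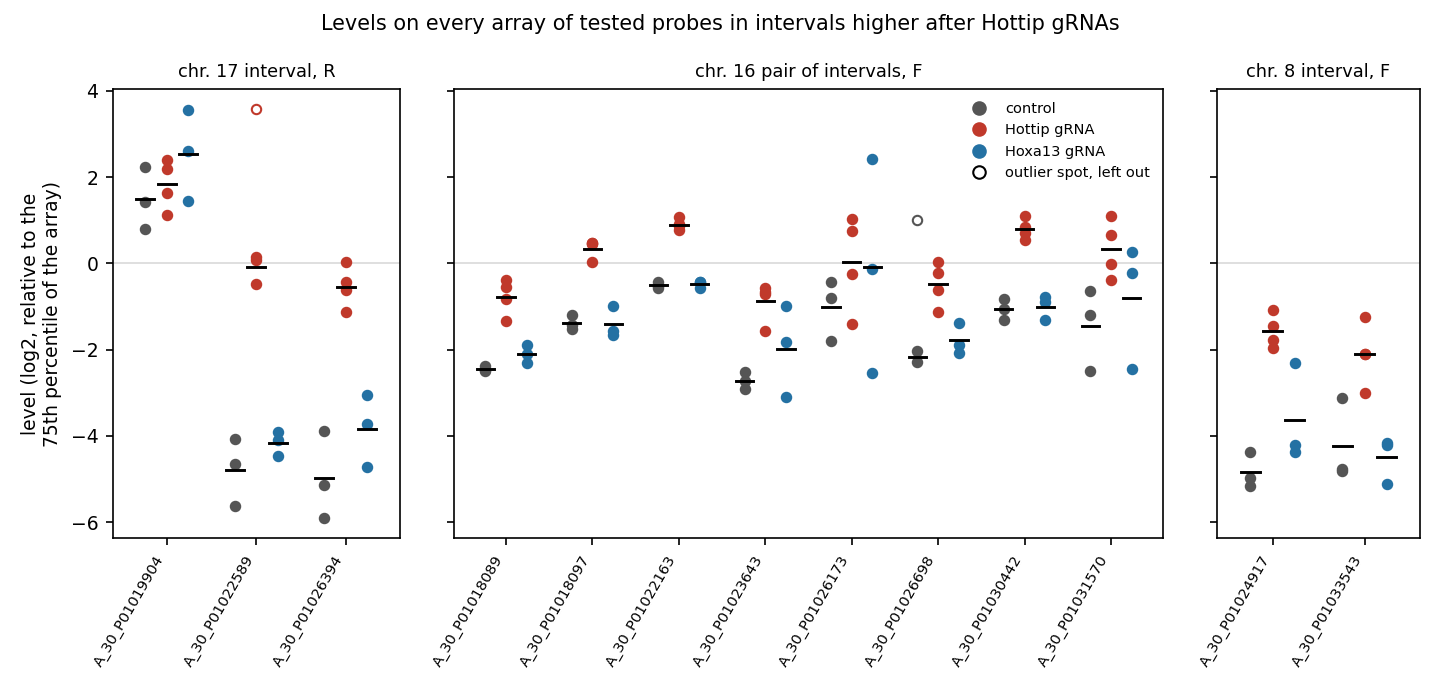
Level on every array (vertical axis, log2 relative to the 75th percentile of the array) of the tested probes in the chromosome 17, 16 and 8 intervals, with 1 point per array, group means as bars and spots left out as outliers as open circles. *Hottip* gRNA arrays lie above the others for 2 of 3 probes on chromosome 17, while A_30_P01019904 overlaps between groups.

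Of the 5 lower calls whose local median differed by less than 1, an interval on chromosome 15 was the one also seen over its interval mean. A_30_P01022262 (chr15:102100964-102104552, F) had levels of −1.83, −1.62 and −1.97 in the control, −4.04, −4.19, −3.40 and −4.22 after *Hottip* gRNAs and −2.08, −2.59 and −1.85 on the arrays labelled *Hoxa13* gRNA. The *Hottip* gRNA arrays were all below the others, at −2.15 from the control (SE 0.30, adjusted p = 0.00833, limma) and −1.79 from the arrays labelled *Hoxa13* gRNA (adjusted p = 0.0347). With the local median subtracted A_30_P01022262 was at −1.66 from the control and no longer called (adjusted p = 0.0602). The other probe of the interval, A_30_P01023361, was lower on *Hottip* gRNA replicates 3 (−2.33) and 4 (−1.94) but not on replicate 1 (1.08), against 0.28 and 1.59 in the control, and was not called (−1.99, adjusted p = 0.615). Over both probes the interval differed from the control by −2.10 (SE 0.39, adjusted p = 0.0354).

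For each of the other 4 of these lower calls, 1 probe of its interval was called. Over all 5 intervals, 6 of 6 other tested probes of the same interval and letter were lower, 3 of them by more than 1 on the log2 scale. Of all tested region probes 45.1% were higher in this comparison, and probes of 1 interval may share a transcript, so they are not independent. A_30_P01033149 (chr9:68349343-68411643, F) had levels of 0.31, 0.44 and −0.09 in the control, −2.78, −2.60, −1.32 and −1.54 after *Hottip* gRNAs and −0.31, −0.48 and −0.33 on the arrays labelled *Hoxa13* gRNA, a difference of −2.28 from the control (SE 0.39, adjusted p = 0.0235). The *Hottip* gRNA arrays were all lower, and the 2 other tested probes of the interval had −1.60 and −0.36 without being called. A_30_P01018015 (chr1:115787961-115860711, R) had −2.12, −2.33 and −1.49 in the control and −3.85, −3.58, −3.17 and −3.85 after *Hottip* gRNAs (−1.63, adjusted p = 0.0422), whereas the other tested probe of its interval, A_30_P01026854, had a difference of −0.03. A_30_P01020134 (chr16:4867322-4874772, R, −2.85, adjusted p = 0.027) lay in row 337, at the edge of the patch, and was called with *Hottip* gRNA replicate 1 (−0.08) left out as an outlier. The remaining one, A_30_P01029814 on chromosome 12, lies in the locus described next. With the tested probes of 1 interval and letter averaged, 585 intervals could be tested, and 3 were called higher and 3 lower after *Hottip* gRNAs than in the control, where 0.602% and 0.39% of all features of that fit were. Between *Hottip* gRNAs and the arrays labelled *Hoxa13* gRNA, 1 was called higher and 2 lower, where 0.506% and 0.226% of all features were. Against the control the counts are thus near the background. Besides the chromosome 15 interval, the lower ones were chr4:146890596-146891297 (F, 2 probes, −1.56, SE 0.28, adjusted p = 0.0275) and chr4:146965675-146979325 (F, 2 probes, −1.32, SE 0.26, adjusted p = 0.0496).

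A run of overlapping intervals on chromosome 12 was lower after *Hottip* gRNAs over most of its length, without most single probes being called. The locus, chosen after its values were seen, spans chr12:110842149-110988678 (146530 bp) and holds 10 intervals with 64 probes, 28 of which were tested (22 with F and 6 with R). Of these 28, 25 were lower after *Hottip* gRNAs than in the control, with a median difference of −0.99 (range −1.84 to 1.23), where the median of all tested region probes was −0.06. A single probe was called, A_30_P01029814 (chr12:110909258-110913909, F), with levels of −0.04, 0.11 and 0.09 in the control, −2.15, −2.16, −1.08 and −1.75 after *Hottip* gRNAs and −0.76, −0.53 and −0.44 on the arrays labelled *Hoxa13* gRNA. All *Hottip* gRNA arrays lay below the others, with a difference of −1.84 from the control (SE 0.31, adjusted p = 0.0213, limma), which was −1.93 and not called (adjusted p = 0.447) with the local median subtracted. The median over the 28 probes of the deviation from each probe's own mean was −0.59, −0.72, −0.26 and −0.80 on the *Hottip* gRNA arrays, 0.35, 0.14 and 0.31 in the control and 0.76, 0.58 and 0.29 on the arrays labelled *Hoxa13* gRNA, so the *Hottip* gRNA arrays were all lower than the rest. Over all tested region probes these values ran from −0.39 to 0.07 after *Hottip* gRNAs, from −0.11 to 0.02 in the control and from 0.09 to 0.22 on the arrays labelled *Hoxa13* gRNA.

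The same locus did not differ in that direction between the arrays labelled *Hoxa13* gRNA and the control, where the median was 0.41 with 18 probes higher and 10 lower. Against the arrays labelled *Hoxa13* gRNA, 25 of 28 probes were lower after *Hottip* gRNAs (median −1.10), and 2 were called. A_30_P01026499 (chr12:110845020-110850870, F) had −2.45, −2.71, −2.33 and −2.74 after *Hottip* gRNAs, −0.88, −0.79 and −0.51 on the arrays labelled *Hoxa13* gRNA and −1.66, −2.18 and −1.53 in the control, and A_30_P01029925 (chr12:110944403-110988678, R) had −3.39, −3.58, −2.79 and −3.81, then −1.55, −1.18 and −1.86, then −1.75, −2.44 and −2.13. The differences from the arrays labelled *Hoxa13* gRNA were −1.83 (adjusted p = 0.0196) and −1.86 (adjusted p = 0.0403), and in both probes the *Hottip* gRNA arrays were the lowest and the arrays labelled *Hoxa13* gRNA the highest. The mean of the 2 tested probes of chr12:110896603-110940553 (F) also differed, by −1.78 (SE 0.34, adjusted p = 0.0467). The probes are spread over the array and the median of their local median differences was 0.11 against the control. Overlapping intervals may share transcripts, so the 28 probes are not independent. When intervals less than 10000 bp apart were joined, 32 loci had at least 10 tested probes, and this one had the lowest median difference from the control, followed by chr13:74712775-74756950 (12 probes, all R, median −0.93, 11 lower and none called).

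**Figure D5:**
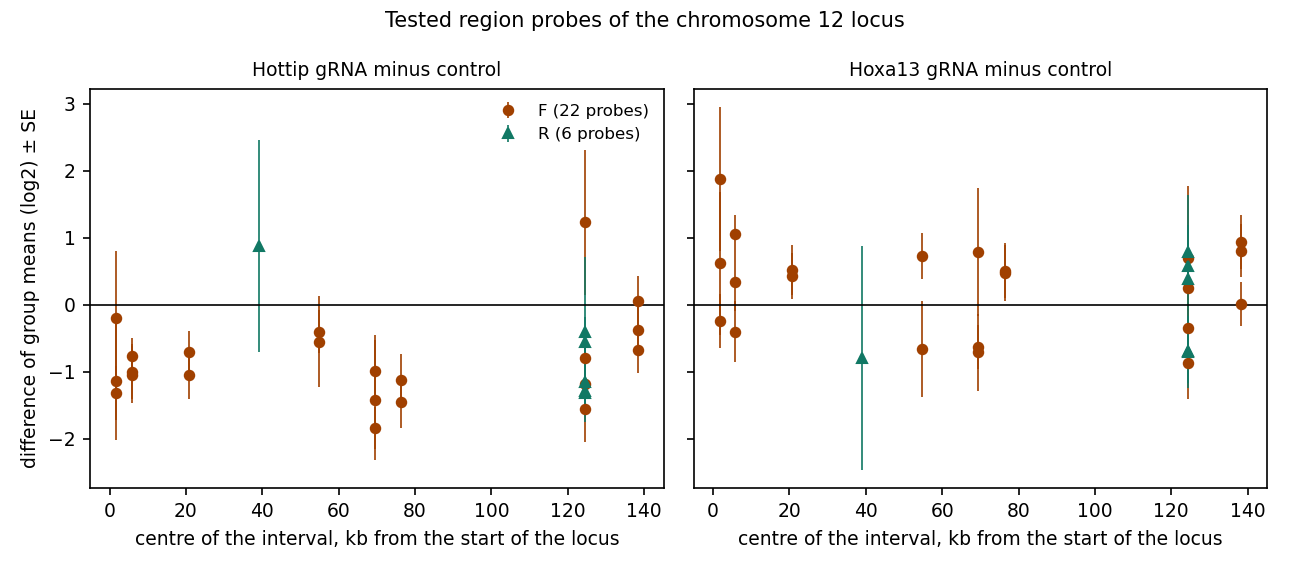
Difference of group means (vertical axis, log2, bars are standard errors from limma) of the 28 tested probes of the chromosome 12 locus, by the centre of the interval in kb from the start of the locus, for *Hottip* gRNA minus control (left) and arrays labelled *Hoxa13* gRNA minus control (right). On the left 25 of 28 probes lie below 0, and on the right 10 of 28 do.

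The remaining lower probes named by rule between *Hottip* gRNAs and the arrays labelled *Hoxa13* gRNA rested on the latter. A_30_P01025631 (chr11:95644899-95658549, F) had −0.87, −0.98, −4.54 and −0.06 after *Hottip* gRNAs and 6.70 and 5.25 on the arrays labelled *Hoxa13* gRNA, where replicate 1 (0.47) was left out as an outlier, and −2.27, −1.64 and −1.51 in the control. Both arrays kept were thus high, the difference was −7.59 (SE 1.08, adjusted p = 0.0219), and the local median differed by −3.68. A_30_P01032703 (chr11:22659730-22699427, F), 1 row away on the array, gave 6.57 and 5.14 on the same arrays and a difference of −7.23 (adjusted p = 0.0399). Against the control, A_30_P01025631 was 7.78 higher over these 2 arrays (adjusted p = 0.0511), 5.94 higher with replicate 1 kept (adjusted p = 0.321) and 3.56 higher with the local median subtracted (adjusted p = 0.446), where the local median itself was 4.22 higher. A_30_P01017441 (chr19:6268793-6276607, F) was 2.37 higher than the control (adjusted p = 0.055), and neither was called. A_30_P01017441 was called lower after *Hottip* gRNAs than on the arrays labelled *Hoxa13* gRNA (−2.63, adjusted p = 0.0238, limma). *Hottip* gRNA replicate 1 (2.29) was left out as an outlier, and 2 arrays labelled *Hoxa13* gRNA were kept. A_30_P01017441 was not called with outlier spots kept (−2.11, adjusted p = 0.539) or the local median subtracted (−1.74, adjusted p = 0.163). A_30_P01018167 (chr13:74642700-74701900, R) was also called lower (−2.06, adjusted p = 0.0327), but not with the local median subtracted (adjusted p = 0.355). It had −3.30, −4.03, −2.93 and −3.27 against −1.73, −1.20 and −1.05 with no overlap.

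Annotated long noncoding RNA genes were set beside the unnamed intervals. No coordinates were taken for these genes, so some intervals may lie within them and measure the same transcripts. Of 28 such genes listed, 17 were matched to a probe by symbol, 8 were well above background on all 10 arrays and 4 on none. Among the 8 were *Malat1* and *Neat1*, nuclear RNAs of speckles and paraspeckles, *Tug1*, *Mirg*, *Dancr* and the host genes of small nucleolar RNAs *Snhg1*, *Snhg3* and *Snhg12*. Of these, 10 could be tested and 0 were called in any comparison by limma. Their median difference was 0.29 for *Hottip* gRNAs against the control, −0.05 for the arrays labelled *Hoxa13* gRNA against the control and 0.20 between *Hottip* gRNAs and those arrays. *Malat1* differed from the control by 0.34 (SE 0.26, adjusted p = 0.816), *Neat1* by 0.55 (SE 0.27, adjusted p = 0.588) and *Mirg*, an imprinted microRNA host gene, by −0.86 (SE 0.43, adjusted p = 0.611) after *Hottip* gRNAs.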

How the data were processed

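Arrays of E14 ES cells were grouped by the sample labels. The authors deposited scanner output of Feature Extraction 11.5.1.1, and its processed signal is an intensity with background subtracted and, on 8 of 10 arrays, a spatial trend removed (not *Hottip* gRNA replicates 3 and 4). The deposited table of log2 values ranks the spots as the median signal minus local background does (rank correlation 1), with no statement in the sources used here of how it was scaled, and served as an alternative only. The array header names mm9, and no genome of that build was used here, so intervals are given without gene annotation. Gene symbols were given to 27656 probes through the RefSeq genes of GRCm38.p6, from which no coordinates were taken, and for the gene lists the probe with the highest mean level stood for its gene.

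Control spots and spots marked as outliers were left out of levels and detection shares, saturated spots were kept, and each array's 75th percentile was subtracted from its log2 processed signals. The number of arrays on which a probe was well above background counted outlier-marked spots too. The 75th percentile was at an intensity of 586 to 2572, and 0.0478% to 4.44% of region spots were marked as outliers on an array. Groups were compared with limma 3.58.1 (lmFit and eBayes, R 4.3.3) over all 10 arrays with 1 mean per group, and p-values were adjusted by Benjamini-Hochberg over all probes that passed the filter (well above background on 3 or more arrays). Simulated data with known changes were used to test the procedure. Detection shares were compared by two-sided exact permutation of arrays (35 splits for 4 against 3, 20 for 3 against 3).

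The rule for named probes took, in each comparison, the 5 largest rises and 5 largest falls among called probes with no overlap between groups and detection on each array of the brighter group, filled up to 3 with the smallest p-values, and the 10 brightest probes. Intervals on chromosome 18 were not named. Other probes and loci were chosen after their values were seen. The members and gene lists were chosen with earlier results of these data known. The alternatives were other scalings (quantile, median), normexp background correction with offset 50 (on the median spot signal, since no mean signal is in the files), the authors' log2 values, other filters on dim probes, the slide, the slide row or the replicate number as a block, 1 slide only, detrended arrays only, the local median of 11 by 11 spots subtracted, an intensity trend, only 2 groups in the fit and each array left out. Keeping outlier spots in the fit, counting only calls with a local median difference under 1, averaging the probes of an interval and the weaker detection mark with outlier spots kept were chosen after seeing the data.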

Additional observations from a re-analysis of the deposited data

Results flagged for a closer look

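The level of A_30_P01020514 (chr17:39983902-39985688, F), one of the 10 brightest region probes, had 1 array that stood apart among the *Hottip* gRNA arrays: 5.08, 5.13 and 5.02 on replicates 1 to 3 and 4.16 on replicate 4. The gap to the nearest array was 0.888 of the range of the group, above Dixon's 95% critical value for 4 arrays. Of 18 such groups of 4 tested 1 passed, and chance alone passes about 1 in 20. On the same array the other 9 brightest probes were also the lowest of the 4, at 3.95 to 4.67, and replicate 4 had the highest 75th percentile of the 10 arrays (2572) and no detrending, the part of which was not tested.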

How the results depend on the processing

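The number of region probes called changed with nearly every setting, whereas region probes stayed below NM_ probes in detection and level under every alternative run for these. For *Hottip* gRNAs against the control, 27 calls became 13 with median centring, 11 with normexp, 12 with the authors' values, 14 with no filter, 3 with the filter on all 10 arrays, 79 with the slide and 17 with the slide row as a block, 16 on 1 slide, 7 with the local median subtracted, 13 on detrended arrays and 16 with only 2 groups in the fit. For the arrays labelled *Hoxa13* gRNA against the control, 8 became 23, 6, 4, 3, 0, 17, 2, 5, 1, 8 and 9 in the same order, and 4 with an intensity trend. In the main fit of these arrays against the control (limma), 242 region probes were higher and 127 lower at an unadjusted p under 0.05. For *Hottip* gRNAs against those arrays, 15 became 10, 7, 14, 1, 3, 35, 13, 4, 4, 11 and 4, and 9 with quantile normalization and with an intensity trend. With outlier spots kept, chosen after seeing the data, the counts were 13, 1 and 20, and with only spots of local median difference under 1, also chosen then, 13, 1 and 12. Of the 27 calls, 3 were shared after local subtraction and 11 with outlier spots kept.

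Leaving out 1 array gave 9 to 37, 0 to 22 and 1 to 33 calls. The first count fell to 9 without control 2 and to 16 without control 1 or *Hottip* gRNA replicate 4. The second was 2 without *Hoxa13* gRNA replicate 1 or control 1, 5 and 4 without replicates 2 and 3, 0 without control 2 and 22 without control 3. The third was 2, 1 and 33 without *Hoxa13* gRNA replicates 1, 2 and 3, 5 without *Hottip* gRNA replicate 1 or 2, and 4 without replicate 4. With the replicate number as a block, 1, 0 and 2 were called, but the numbers do not pair the samples: same-numbered arrays deviated with correlations of −0.233 to 0.141.

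The median difference after *Hottip* gRNAs became 0.24 with median centring (all probes 0.28), 0.37 with no filter and −0.20 with local subtraction, against the arrays labelled *Hoxa13* gRNA 0.04, 0.24 and, on the filter of all 10 arrays, −0.39, and for those arrays against the control −0.01 with the authors' values, 0.29 with the filter of all 10 arrays and −0.02 with local subtraction. Leaving out 1 array gave −0.14 to 0.02, −0.34 to −0.22 and 0.12 to 0.15. With the scanner's weaker detection mark (positive and significant), *Hottip* gRNA arrays differed by −7.35 points from the control (exact permutation p = 0.0286) and by −9.83 from the arrays labelled *Hoxa13* gRNA (exact p = 0.0286). With outlier spots kept as well, an alternative chosen after seeing the data, these were −6.31 (exact p = 0.0857) and −9.09 (exact p = 0.0571). The share on those arrays minus the control turned to −0.995 on 1 slide, −0.64 without *Hoxa13* gRNA replicate 2, −0.405 without control 2 and −0.621 without control 3 (range −0.64 to 2.37). Over the arrays left out it was −4.63 to −1.64 for *Hottip* gRNAs against the control and −4.85 to −2.92 against the arrays labelled *Hoxa13* gRNA. NM_ minus region detection (39.2 points) became 34.3 with the weaker mark and 13.7 over merged loci, NR_ minus region (7.55) became 5.26 and −20.5, and the region minus NM_ level (−2.64) became −1.78 with normexp. Over merged loci, a locus or an accession was detected when any of its probes was. The 2004 loci held 14637 probes, so these values are in a unit unlike the shares over probes. The cause of these changes was not tested.

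Of the chromosome 17 probes, A_30_P01022589 remained called against the control in 21 of 21 alternatives and A_30_P01026394 in 20 of 21, with the exception of the replicate block (adjusted p = 0.0715). A_30_P01030442 remained called in 14 of 22, A_30_P01028741 in 5 of 21, A_30_P01018097 in 4 of 22 and A_30_P01019294, on the arrays labelled *Hoxa13* gRNA, in 0 of 20. Against the arrays labelled *Hoxa13* gRNA, *Hottip* gRNA calls remained in 20 of 21 for A_30_P01022589. The exception was the fit on 1 slide, which held 1 of these arrays. Since the other 2 were alone on their slide, slide and group cannot be told apart in these calls. Calls remained in 9 of 21 for A_30_P01026394 (in none with an array left out), 9 of 22 for A_30_P01030442 and 6 of 22 for A_30_P01022163. They remained in 2 of 22 for A_30_P01018097, 3 of 21 for A_30_P01018167 and 4 of 21 for A_30_P01029925. No named probe changed direction. Against the control, over the 24 alternatives that kept every probe of the set, the median was 1.30 to 2.05 for the 8 chromosome 16 probes, −1.05 to −0.66 for the 28 of the chromosome 12 locus and 2.95 to 4.99 for the 3 on chromosome 17 (2.02 to 4.20 against the arrays labelled *Hoxa13* gRNA). The filter on all 10 arrays kept 3, 8 and 1 of these (1.70, −0.61 and 0.34), on chromosome 17 A_30_P01019904. Signal over background limits the reach: 11973 of 14637 region probes were too dim to test.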
